A study of Mus musculus with 6 samples.

Results

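The genes described here are 9 apolipoprotein genes, Apoa1, Apoa2, Apoa4, Apoa5, Apob, Apoc1, Apoc2, Apoc3 and Apoe, and Mttp, whose protein loads lipid onto apolipoprotein B. They were chosen by name, as the genes of lipoprotein coats and of very-low-density lipoprotein (VLDL) assembly, with earlier results of these data known. All 10 were found once each among the 20673 genes of the deposited liver RNA sequencing tables. Their RNA was measured in the livers of young adult C57BL/6J mice. The regular diet (RD) group held 3 livers that received no treatment, and the high-cholesterol diet (HCD) group held 3 livers taken after 3 days of feeding. The HCD differed from the RD in more than cholesterol, since it also contained cocoa butter and sodium cholate, a bile salt. The study used mice of both sexes, and the labels do not say which liver came from which. Sex-linked reads, given below, set HCD replicate 1 apart as female. Nothing in the labels says how the mice were housed or whether 2 livers shared a cage, so the p-values describe the spread between these 6 livers.

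Hepatocytes secrete triglyceride and cholesteryl ester in VLDL, a particle built on a single apolipoprotein B molecule that Mttp, the microsomal triglyceride transfer protein, lipidates in the endoplasmic reticulum. Apolipoproteins A-I and A-II form the coat of high-density lipoprotein (HDL). The apolipoproteins C, E, A-IV and A-V move between particles, where C-II activates lipoprotein lipase, C-III restrains it, A-V promotes it, and E is the ligand by which remnant particles are taken up again by the liver.

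Apoc1 and Apoe RNA rose with HCD, while Apob and Mttp, the genes of VLDL assembly, overlapped between the diets and did not pass the test. Of the 10 genes, 2 passed an adjusted p under 0.05 in edgeR's quasi-likelihood test, against 3.27% of the 13105 genes tested, and both were higher with HCD (1.95% of all genes were called higher and 1.32% lower). The 10 genes had a median log2 fold change of HCD over RD of 0.62, and all genes tested had a median of 0.0074. The log2 fold change was above 0 for 7 genes and below 0 for 3. In 6 genes, namely Apoc1, Apoe, Apoa2, Apoa4, Apoa5 and Apoc3, every HCD liver lay above every RD liver, against 14% of all genes. The same 6 had an unadjusted p of 0.05 or less, against 11.1% of all genes in that direction. DESeq2 called 5 of the 10 genes (8.53% of all genes, 4.85% in the direction of HCD), adding Apoa2, Apoa4 and Apoa5 to Apoc1 and Apoe.

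**Figure D1:**
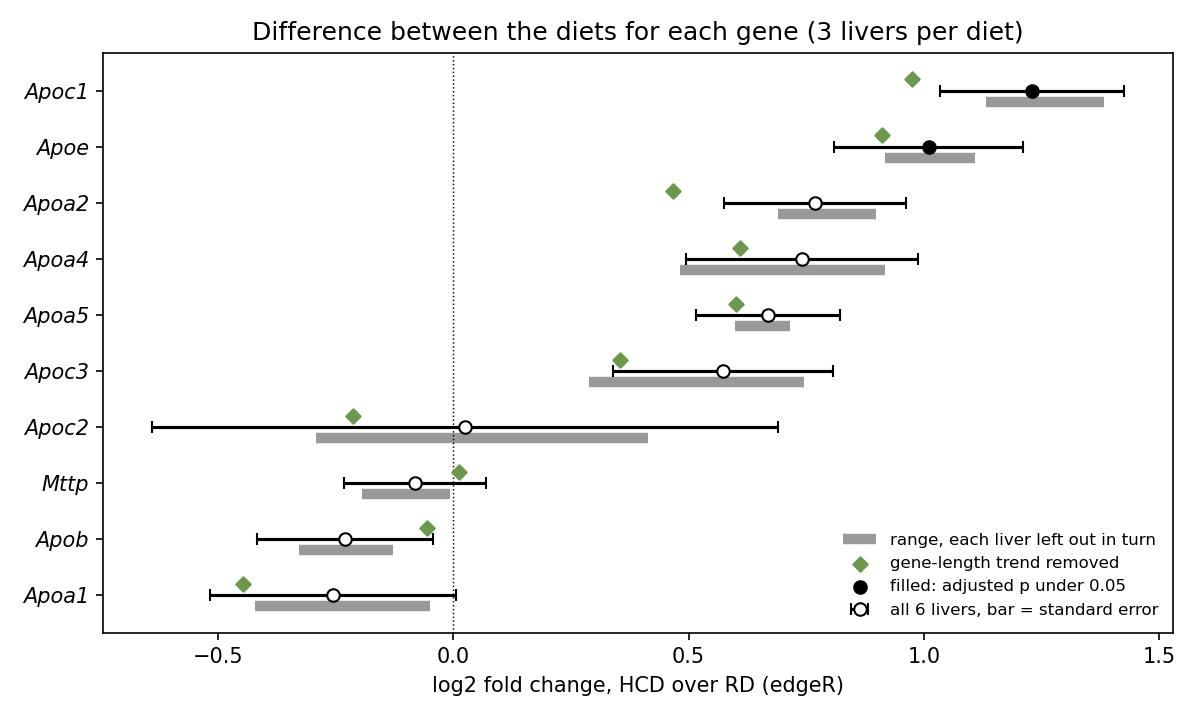
Log2 fold change of HCD over RD for each of the 10 genes, with 3 livers per diet. Circles with bars give the edgeR estimate and its standard error, filled where the adjusted p is under 0.05, grey bars span the estimates with each liver left out in turn, and diamonds give the estimate after a trend with gene length was removed. Apoc1 (1.23) and Apoe (1.01) are the 2 filled circles, and the grey bar crosses 0 for Apoc2 alone.

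Apoe is the gene of this group with the most reads. Its product is the remnant ligand, made by hepatocytes and also by macrophages. In CPM, counts brought to a common library total with TMM factors, Apoe stood at 16880, 16376 and 16514 in the RD livers (replicates 1 to 3, the order kept below) and at 34154, 28735 and 37397 in the HCD livers. The RD livers were close together, and the lowest HCD liver, replicate 2, was far above the highest RD liver. The log2 fold change of Apoe was 1.01 (standard error 0.20), a 2.02-fold difference, with an adjusted p of 0.0373.

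Apoc1 encodes a small apolipoprotein of VLDL and HDL that activates lecithin-cholesterol acyltransferase and slows the uptake of remnants. It stood at 1499.8, 1463 and 1608 CPM with RD, and at 4042, 2777 and 3902 CPM with HCD. As for Apoe, HCD replicate 2 was the lowest of its group and still above every RD liver. The log2 fold change was 1.23 (standard error 0.20), a 2.35-fold difference, with an adjusted p of 0.0215. By p-value Apoc1 ranked 114 and Apoe ranked 293 among the 13105 genes tested.

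These 2 calls were close to the threshold. With RD replicate 1, RD replicate 2, RD replicate 3 or HCD replicate 3 left out, neither gene passed, with log2 fold changes of 1.16 to 1.27 for Apoc1 and 0.92 to 1.02 for Apoe and adjusted p of 0.0584 to 0.114 and 0.0759 to 0.163. Without HCD replicate 1 or HCD replicate 2 both passed. Short transcripts were in general higher with HCD in these libraries. The tenth of genes of Apoc1's length (57 to 1436 exon bases) had a median log2 fold change of 0.32, with 7.78% called higher, and the tenth of Apoe's length (1436 to 2192 bases) a median of 0.23, with 4.50% called higher. After the trend with length was removed, Apoc1 was at 0.97 (adjusted p = 0.0577) and Apoe at 0.91 (adjusted p = 0.0692).

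Apob encodes the structural protein of VLDL and low-density lipoprotein, and 1 copy stays with each particle for its life. It stood at 4726, 5356 and 4050 CPM with RD and 3610, 4393 and 4051 CPM with HCD. The diets overlapped. For Apob the log2 fold change was -0.23 (standard error 0.19), its adjusted p was 0.522, and the 95% interval of the difference ran from 0.63-fold to 1.15-fold. The log2 value was -0.056 after the length trend was removed and -0.30 with library sizes alone. With a liver left out it ran from -0.33 (without RD replicate 3) to -0.13 (without RD replicate 2).

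Mttp stood at 317, 328 and 250 CPM with RD and at 277, 289 and 280 CPM with HCD. The HCD livers all lay between the lowest and the highest RD liver. Its log2 fold change was -0.081 (standard error 0.15), with an adjusted p of 0.798 and a 95% interval of 0.74-fold to 1.20-fold. The direction of Mttp is not settled, since the value was 0.012 after the length trend was removed and -0.19 to -0.0078 with a liver left out, the ends being without RD replicates 3 and 2. A 2.02-fold difference, that of Apoe, lay outside the intervals of Apob and Mttp.

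Apoa1 encodes the main protein of HDL. It was spread widely within each diet, at 9575, 7521 and 11169 CPM with RD and 5478, 8655 and 9557 CPM with HCD. The diets overlapped, and HCD replicate 1 was the lowest of the 6. With a log2 fold change of -0.25 (standard error 0.26), Apoa1 had an adjusted p of 0.618 and a 95% interval of 0.55-fold to 1.27-fold. Leaving out single livers moved the value widely, to -0.049 without HCD replicate 1, -0.12 without RD replicate 3, -0.39 without RD replicate 2 and -0.42 without HCD replicate 3. It was -0.45 after the length trend was removed.

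Apoa2, the second protein of HDL, stood at 4242, 3826 and 4107 CPM with RD and at 7549, 5607 and 7589 CPM with HCD. The diets did not overlap, and HCD replicate 2 was again the lowest of its group. Its log2 fold change was 0.77 (standard error 0.19) with an adjusted p of 0.0701, so it did not pass. In edgeR it passed without a filter on low counts (adjusted p = 0.0312) and without HCD replicate 2 (0.90, adjusted p = 0.0498), and DESeq2 gave it an adjusted p of 0.00024. These were 3 passes among 17 alternatives. In edgeR with any other liver left out, its adjusted p was 0.0884 to 0.261. With 537 exon bases it is the shortest of the 10 genes, and its log2 fold change was 0.47 after the length trend was removed (adjusted p = 0.273).

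Apoa5, which promotes the hydrolysis of plasma triglyceride, stood at 707, 834 and 809 CPM with RD and at 1274, 1177 and 1285 CPM with HCD. The groups were well apart, with little spread among the HCD livers. Its log2 fold change was 0.67 (standard error 0.15), and its adjusted p of 0.0552 lay just above the threshold. With upper-quartile factors, without a filter on low counts, or with only genes of at least 50 counts on average, Apoa5 passed in edgeR (adjusted p = 0.0476, 0.0427 and 0.0468). It did not pass after the length trend was removed (0.60, adjusted p = 0.0966) or with any liver left out (0.60 to 0.72, adjusted p of 0.0653 to 0.245). Of its exon bases, 20.8% lie opposite Gm47544 on the other strand, and whether reads were counted by strand is not stated.

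Apoa4, a lipid-responsive apolipoprotein made mainly by the intestine and at a lower level by mouse liver, stood at 75.0, 80.1 and 49.97 CPM with RD and at 107, 84.4 and 151 CPM with HCD. HCD replicate 2 exceeded the highest RD liver only narrowly. At a log2 fold change of 0.74 (standard error 0.25), Apoa4 had an adjusted p of 0.140, and without HCD replicate 3 its value was 0.48. Of the exon bases of Apoa4, 69.8% lie opposite genes annotated on the other strand, Gm47528 and Gm10680. The same doubt about strand holds for Apoa4.

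Apoc3, the inhibitor of lipoprotein lipase, stood at 1581, 1434 and 1605 CPM with RD and at 2064, 1714 and 3098 CPM with HCD. All HCD livers were above all RD livers, and HCD replicate 3 was well above the other two. Apoc3 had a log2 fold change of 0.57 (standard error 0.23) and an adjusted p of 0.207. Leaving out HCD replicate 3 brought it to 0.29, and removing the length trend to 0.35.

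Apoc2, the activator of lipoprotein lipase, had almost no reads in these tables. Its reads numbered 10, 20 and 21 with RD against 25, 17 and 4 with HCD. The Apoc2 log2 fold change was 0.025 (standard error 0.66, adjusted p = 0.987). In GENCODE M21, 79.5% of the exon bases of Apoc2 also belong to Gm44805 on the same strand, which leaves 167 bases to Apoc2 alone. Gm44805 itself was counted 2 times, both in HCD replicate 2. HTSeq, named in the submitters' processing notes, can discard reads that overlap 2 genes, and its setting is unknown here, so the Apoc2 values are uncertain as a measure of its RNA. No direction can be read from them.

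FPKM, which divides by gene length, lets the levels of different genes be compared. With RD, 3 genes were at the top and overlapped each other, Apoe at 11338 ± 306.5, Apoa1 at 11168 ± 2391 and Apoa2 at 11047 ± 718.5 FPKM (SD, n = 3). Below them came Apoc1 at 2994 ± 212 and Apoc3 at 2221 ± 173 FPKM, which did not overlap, then Apob at 493 ± 58.4 and Apoa5 at 454 ± 40.2 FPKM, which did. Mttp at 70.1 ± 8.60 and Apoa4 at 54.8 ± 12.0 FPKM overlapped as well, and Apoc2 was last at 1.67 ± 0.80 FPKM.

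With HCD the order changed in 3 places. Apoe at 23254 ± 3471 and Apoa2 at 19166 ± 3518 FPKM overlapped each other at the top and lay above Apoa1, which was at 9469 ± 2521 FPKM and overlapped Apoc1 at 7152 ± 1528 FPKM. Apoc3 was at 3365 ± 1098 FPKM. Apoa5 at 734 ± 50.7 FPKM was above Apob at 428 ± 33.5 FPKM without overlap, and Apoa4 at 93.7 ± 28.9 FPKM was above Mttp at 67.4 ± 0.16 FPKM with overlap. Among all genes of a liver, Apoe ranked 6 to 8 by FPKM with RD and 2 to 4 with HCD, and Apoc1 ranked 29 to 34 with RD and 10 to 23 with HCD.

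**Figure D2:**
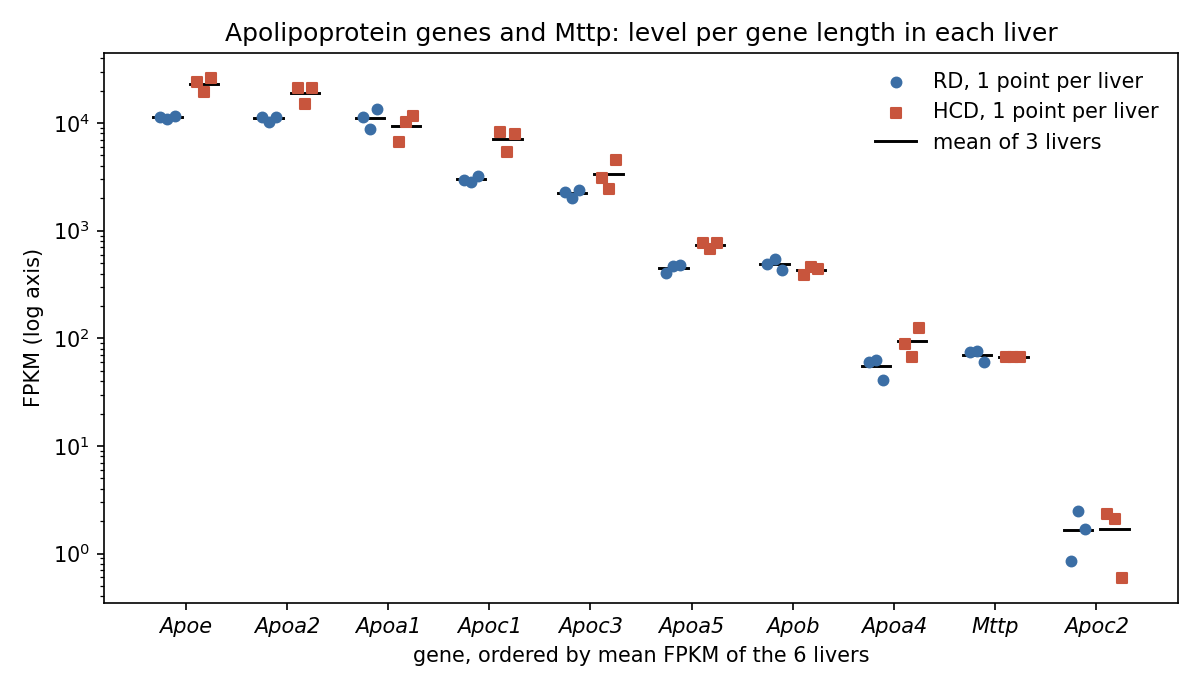
FPKM of the 10 genes in each liver on a log axis, with RD livers as circles, HCD livers as squares and a line at the mean of 3 livers. Apoe, Apoa2 and Apoa1 overlap at the top with RD, and with HCD Apoe and Apoa2 lie above Apoa1.

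Ratios of FPKM within a liver show the unequal shifts without a scaling between livers. Apoe over Apoa1 was 1.02, 1.26 and 0.85 with RD and 3.60, 1.92 and 2.26 with HCD. The diets did not overlap (exact two-sided permutation test, p = 0.1, adjusted p = 0.15 over the 6 ratios computed). Apoa2 over Apoa1 was 1.02, 1.17 and 0.85 with RD and 3.17, 1.49 and 1.83 with HCD, and Apoc1 over Apoc3 was 1.29, 1.39 and 1.37 with RD and 2.67, 2.21 and 1.72 with HCD, both without overlap. Apoc3 over Apoa1 went from 0.20 ± 0.029 with RD to 0.37 ± 0.11 with HCD (SD, n = 3), also without overlap. Apoc1 over Apoe moved less, from 0.26 ± 0.014 to 0.31 ± 0.032, and Apob over Mttp was 7.05 ± 0.35 with RD and 6.34 ± 0.49 with HCD (exact permutation p = 0.2 for each).

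Together the 10 genes took 4.09%, 3.87% and 3.999% of all gene counts in the RD livers and 6.25%, 5.23% and 5.96% in the HCD livers. The difference of 1.82 percentage points had an exact two-sided permutation p of 0.1, the smallest that 3 livers against 3 allow. Split after these values had been seen, Apoe and Apoc1 alone went from 1.85% ± 0.046 to 3.61% ± 0.50 (SD, n = 3), while the other 8 genes were at 2.13% ± 0.10 with RD and 2.21% ± 0.084 with HCD.

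**Figure D3:**
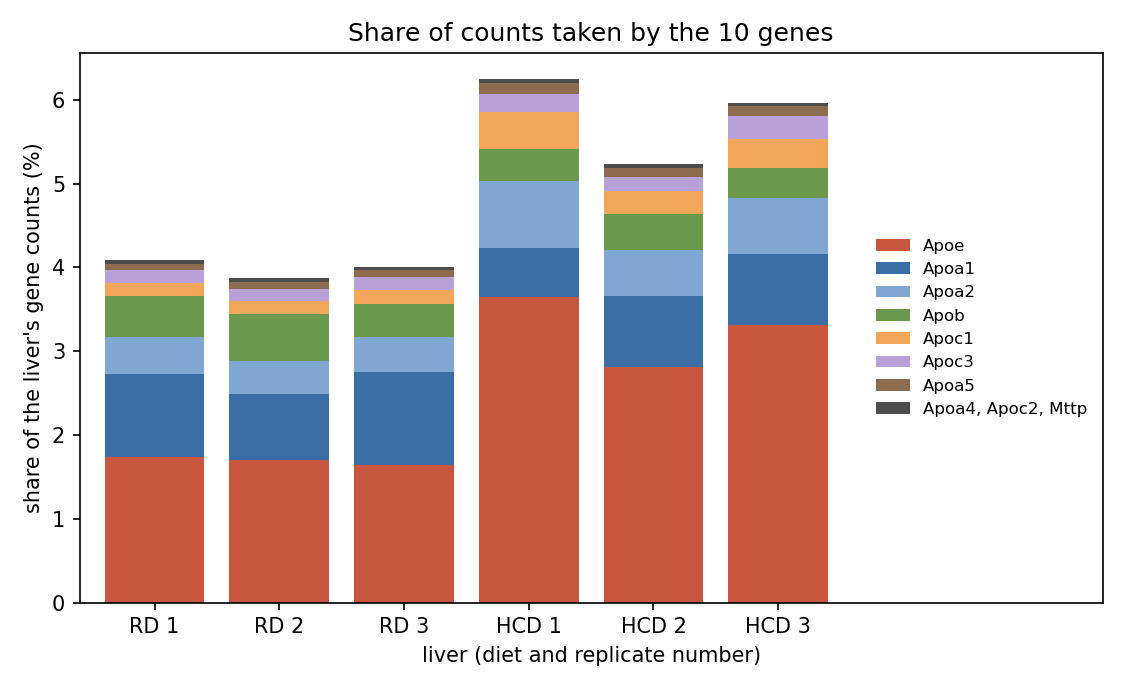
Share of each liver's gene counts taken by the 10 genes, stacked by gene, for RD replicates 1 to 3 and HCD replicates 1 to 3. The RD stacks reach 3.87% to 4.09% and the HCD stacks 5.23% to 6.25%, and the Apoe block accounts for most of that step.

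Across the 6 livers, Apoc1 and Apoe varied together (Pearson r of log2 CPM plus 0.5, 0.990). Apoa2 followed both, with r of 0.991 with Apoc1 and 0.982 with Apoe, as did Apoa5 with r of 0.964 and 0.966. Apob ran the other way, at -0.74 with Apoc1 and -0.66 with Apoe. These values describe 6 livers that fall into 2 diets, so any genes that differ between the diets share that part. Among the 9132 genes averaging 5 CPM or more, those most like Apoc1 were Mpc1-ps, Cyp2a5, Hexim1, Rpl27 and Hsd11b1, with r of 0.993 to 0.998. Those most like Apoe were Gm11808, 0610012G03Rik, Psme2, Cnbp and Edf1, with r of 0.994 to 0.998. Apoe was number 11 in likeness to Apoc1, and Apoc1 number 15 in likeness to Apoe.

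Most of these genes lie in a pair of clusters. On chromosome 7 of GRCm38, Apoc2 (ENSMUSG00000002992, 19671579 to 19677941), Apoc1 (ENSMUSG00000040564, 19689481 to 19692660) and Apoe (ENSMUSG00000002985, 19696109 to 19699188) follow each other on the minus strand within 27.6 kb, with Apoc4 between Apoc2 and Apoc1. On chromosome 9, Apoa1 (ENSMUSG00000032083, 46228580 to 46230466), Apoc3 (ENSMUSG00000032081, 46232933 to 46235636, minus strand), Apoa4 (ENSMUSG00000032080, 46240696 to 46243459) and Apoa5 (ENSMUSG00000032079, 46268633 to 46271919) span 43.3 kb. The other 3 stand alone, Apoa2 (ENSMUSG00000005681) on chromosome 1 from 171225054 to 171226379, Mttp (ENSMUSG00000028158) on chromosome 3 from 138089854 to 138144968, minus strand, and Apob (ENSMUSG00000020609) on chromosome 12 from 7977648 to 8016835.

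In the chromosome 7 cluster Apoc4, a minor apolipoprotein of VLDL, rose as Apoc1 and Apoe did, from 326 to 617 CPM (log2 fold change 0.92, standard error 0.19, adjusted p = 0.0412). Of the 15 protein-coding genes tested whose start lies within 150 kb of that of Apoe, 3 were called, Apoc4, Apoc1 and Apoe, which are adjacent. The tested genes on either side of these 3 were Apoc2, with the few reads described above, and Tomm40 (0.11, standard error 0.13, adjusted p = 0.652), and beyond Apoc2 lay Clptm1 (0.18, standard error 0.13, adjusted p = 0.462). Farther out, Nectin2 was at -0.57 and Bcl3 at -1.31, with adjusted p of 0.116 and 0.0834. In the chromosome 9 cluster, 0 of the 6 genes tested within 150 kb of the Apoa1 start were called in edgeR, and 3 of them, Apoc3, Apoa4 and Apoa5, had an unadjusted p under 0.05. DESeq2 called 2 of those 3, Apoa4 and Apoa5. Zpr1 and Bud13, next to Apoa5, were at -0.085 and -0.025. A list of 13 genes flanking both clusters, of which 12 were tested, had 0 calls in edgeR and in DESeq2, 1 unadjusted p under 0.05 (Nectin2) and a median of -0.052.

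**Figure D4:**
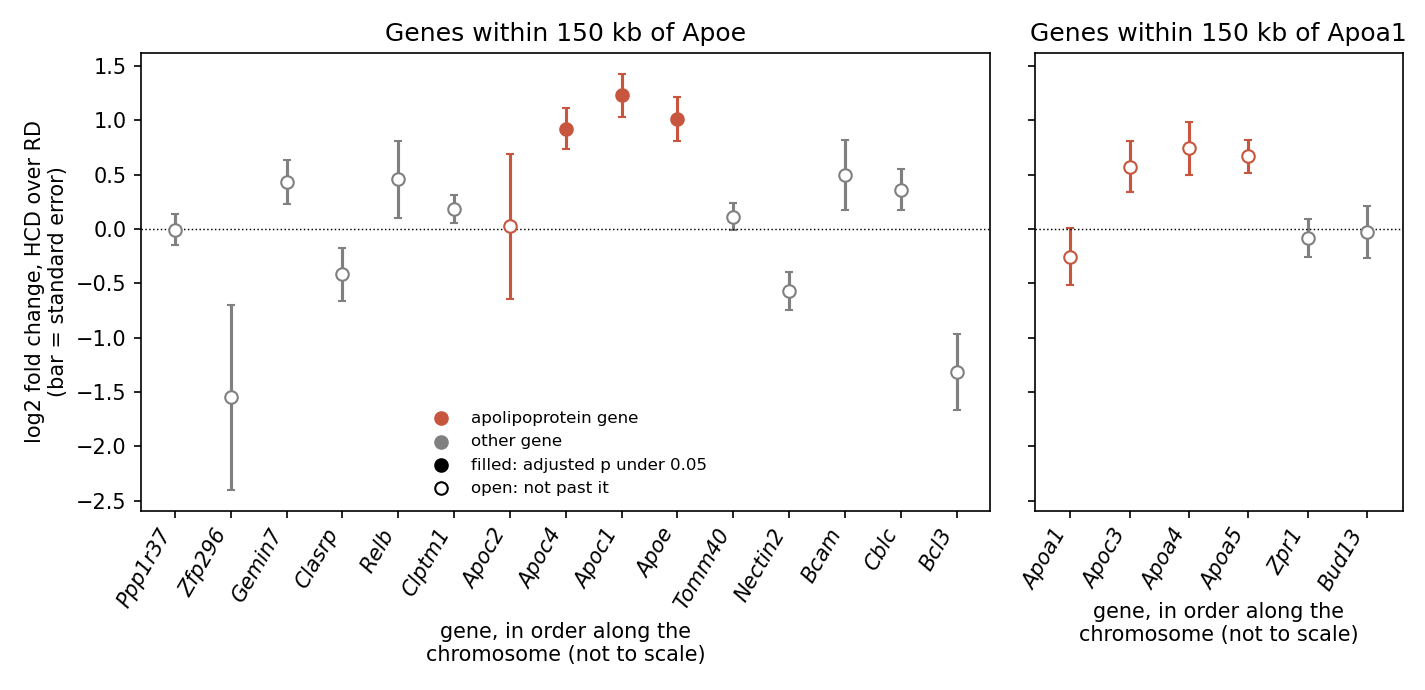
Log2 fold change of HCD over RD, with its standard error, for the tested protein-coding genes whose start lies within 150 kb of that of Apoe (left) and Apoa1 (right), in chromosomal order and not to scale. Apoc4, Apoc1 and Apoe, filled for an adjusted p under 0.05, stand at 0.92 to 1.23 between Apoc2, at 0.025 with a wide error bar, and Tomm40 at 0.11, and the 3 genes after Apoa1 stand at 0.57 to 0.74 without passing.

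Promoter sequences of RefSeq for GRCm38.p6 were on hand for 8 of the 10 genes, all but Apoc1 and Apoc3, and covered the 150 bases before the start site for 7 of them, all but Apoa4. These bases are shown for Apoe, the called gene among them, for Apoa2 and Apoa5, the next by p-value, and for Apoa1 and Apob, whose diets overlapped. They lie at chr7:19699189-19699338 (minus strand), chr1:171224904-171225053, chr9:46268458-46268607, chr9:46228430-46228579 and chr12:7977498-7977647 (plus strand). Capitals mark exact matches, on either strand, to the TATA box TATAAA, the nuclear receptor element AGGTCA, the E-box CACGTG, the GC box GGGCGG or the HNF4-type site CAAAGTCCA, and no 2 matches overlap.
Apoe: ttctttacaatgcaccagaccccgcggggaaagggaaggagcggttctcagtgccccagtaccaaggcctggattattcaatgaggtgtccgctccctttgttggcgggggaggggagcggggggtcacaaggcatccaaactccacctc
Apoa2: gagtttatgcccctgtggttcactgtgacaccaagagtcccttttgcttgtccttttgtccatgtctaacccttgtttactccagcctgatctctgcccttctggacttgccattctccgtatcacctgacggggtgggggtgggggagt
Apoa5: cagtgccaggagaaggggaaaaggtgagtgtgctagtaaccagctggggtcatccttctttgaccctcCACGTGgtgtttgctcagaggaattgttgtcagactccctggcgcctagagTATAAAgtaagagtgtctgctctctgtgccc
Apoa1: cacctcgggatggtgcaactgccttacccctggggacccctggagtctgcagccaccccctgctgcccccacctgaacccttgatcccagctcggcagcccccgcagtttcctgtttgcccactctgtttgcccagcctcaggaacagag
Apob: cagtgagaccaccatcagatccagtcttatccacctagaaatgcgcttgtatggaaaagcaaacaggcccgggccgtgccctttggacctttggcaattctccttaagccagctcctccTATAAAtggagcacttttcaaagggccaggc

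The Apoa5 window holds TATAAA from base -31 and CACGTG from base -82, counted from the start site, and the Apob window holds TATAAA from base -31. The Apoe, Apoa2 and Apoa1 windows hold none of the 5 motifs. Over all 32851 RefSeq promoter entries, windows of the same length hold TATAAA in 7.57%, AGGTCA in 8.58%, CACGTG in 4.3%, GGGCGG in 28.6% and CAAAGTCCA in 0.271%. A TATAAA match was thus found in 1 gene that was higher with HCD in all livers and in 1 that was not.

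The remaining apolipoproteins gave 1 call among 9 tested, Apoc4, with a median log2 fold change of 0.25. Apoh, a phospholipid-binding plasma protein, was at 0.41 (adjusted p = 0.230), and Apom, Apof and Apon lay between -0.080 and 0.031. The acute-phase apolipoproteins Saa1 and Saa2, whose reads can be shared between near-identical genes, were at 0.35 and 0.38 with standard errors of 0.97 and 0.95. Saa4 was at -0.58 (standard error 0.34, adjusted p = 0.369). Apod was not found by name among the genes counted, so it was not analysed here.

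Partners of VLDL assembly and secretion split in both directions. Of 20 tested, 1 was called, Ces1d, a lipase that mobilizes stored triglyceride for VLDL, which rose from 573 to 1165 CPM (log2 fold change 1.02, standard error 0.22, adjusted p = 0.0473). Ces1d belongs to a family of similar genes that can share reads. The list had a median of -0.021, with 9 genes above 0 and 11 below. Next by p-value were A1cf at -0.75, the cofactor of Apob mRNA editing, Tm6sf2 at 1.08, which promotes VLDL lipidation, and Lpcat3 at 0.56, which makes polyunsaturated phospholipid (adjusted p = 0.0615, 0.0697 and 0.0731). The editing enzyme Apobec1 was at -0.67 (adjusted p = 0.0991). DESeq2 called 5 of the 20, these 4 and Ces1d, and 6 had an unadjusted p under 0.05. Of the acyltransferases, Dgat1 and Dgat2 were at -0.013 and -0.029 and Soat2, which esterifies cholesterol, at 0.49 (adjusted p = 0.251). Of the export genes, Sar1b, Mia2, Mia3 and Surf4 lay between -0.10 and 0.10 and Tmem41b was at -0.68 (adjusted p = 0.121).

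Among genes of lipoprotein clearance, Vldlr, the VLDL receptor, was at 0.096, 0.14 and 0.87 CPM with RD and 24.9, 0.97 and 2.43 CPM with HCD (adjusted p = 0.0979), with HCD replicate 1 far above the rest. Scarb1, the HDL receptor, was at 0.63 (adjusted p = 0.0514), and Angptl4, an inhibitor of lipoprotein lipase, at 0.71 (adjusted p = 0.0937).

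Among 8 HDL partners, 1 was called, Abcg1, a sterol exporter, which rose from 4.13 to 17.9 CPM (log2 fold change 2.10, standard error 0.36, adjusted p = 0.0258), and the median was 0.15. Abca1, which lipidates apolipoprotein A-I, was at 0.11 (adjusted p = 0.831), Lcat, which esterifies HDL cholesterol, at 0.38 (adjusted p = 0.163), and Bmp1, which trims the apolipoprotein A-I propeptide, at -0.53 (adjusted p = 0.0588). DESeq2 called 3 of the 8, Abcg1, Lcat and Bmp1.

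Of 19 transcriptional regulators known for apolipoprotein genes, 2 rose and 1 fell, with a median of -0.076. Srebf1, the driver of fatty acid synthesis, rose from 227 to 1001 CPM (log2 fold change 2.14, adjusted p = 0.00407). Nr0b2, a repressor induced by bile acids, rose from 35.5 to 89.7 CPM (1.34, adjusted p = 0.0303). Srebf2, the driver of cholesterol synthesis, fell from 83.0 to 41.0 CPM (-1.02, adjusted p = 0.0296). Next by p-value was Nr1d1 at -1.54 (adjusted p = 0.132). Hnf4a, a main activator of these genes, was at -0.36 (adjusted p = 0.279), and the oxysterol receptor genes Nr1h3 and Nr1h2 were at 0.15 and 0.018. In a list of 8 fasting and lipid-load genes tested, 0 were called in edgeR or DESeq2 and 0 had an unadjusted p under 0.05, with a median of 0.21.

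Hepatocyte markers were abundant in all livers, with Alb at 74037 CPM with RD and 88544 CPM with HCD, and 0 of 7 tested were called in edgeR, with 2 at an unadjusted p under 0.05 and called in DESeq2 (Fgb at -0.69 and Ttr at 0.59) and a median of -0.066. Kupffer cell markers, the resident macrophages that also make Apoe and Apoc1, were above 0 in 8 of 8, with a median of 0.86. Of these, 0 passed in edgeR, 4 had an unadjusted p under 0.05, and DESeq2 called 2, Cd5l and C1qb. Their summed level was 132 to 226 CPM with RD and 187 to 413 CPM with HCD, so the diets overlapped. HCD replicate 3 had the highest Apoe, 37397 CPM, with the lowest Kupffer sum of its group, 187 CPM, while HCD replicate 1 had the highest Apoc1, 4042 CPM, with the highest Kupffer sum, 413 CPM. In bulk tissue, more cells of a type and more RNA per cell cannot be told apart, and the part of these markers in the Apoe and Apoc1 values was not tested.

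The intestinal list bears on Apoa4, Apob and Apoa1, which enterocytes also make. Its 1 tested gene, Fabp2, a fatty acid-binding protein, rose from 34.6 to 130 CPM (log2 fold change 1.91, adjusted p = 0.00295), whereas Vil1 averaged 0.079 CPM with RD and 0.33 CPM with HCD, and Lct averaged 0 and 0.046 CPM. The other 4 of the list were not found by name among the genes counted, so they were not analysed here. Stellate cell markers had a median of 0.51 (6 tested), endothelial markers 0.21 (5), cholangiocyte markers 0.60 (5) and leukocyte markers 0.42 (4), with 0 called in any by edgeR or DESeq2, and 1 stellate marker, Dcn, at an unadjusted p under 0.05. Red cell markers had 2 of 5 called in edgeR, Hba-a1 at 2.41 and Hbb-bs at 2.28, and 3 in DESeq2, which added Hbb-bt, while Alas2 was at -0.70 (105 to 154 CPM with RD and 8.24 to 119 CPM with HCD). The list had summed levels of 138 to 239 CPM with RD and 177 to 468 CPM with HCD. Their part in the values above was not tested.

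Library totals ran from 13771630 to 23129576 gene counts in the RD group and from 13935491 to 18545549 in the HCD group. Every member but Apoc2 had at least 1148 counts in every liver. The biological coefficient of variation between livers of 1 diet was 27.8%. In 1 library the sex-linked genes stood apart, since the female-specific Xist was read 5032 times in HCD replicate 1 and never elsewhere, while the Y-linked Ddx3y had 0 counts there and 426 to 1229 in the other livers. By these genes HCD replicate 1 was female and the other livers male, so sex was not balanced between the diets. Without HCD replicate 1 the log2 fold change was 1.13 for Apoc1 and 0.995 for Apoe, and both passed. That liver also had the highest Vldlr and the lowest Apoa1, and the part of sex in those values was not tested.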

How the data were processed

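The counts deposited by the authors are whole numbers of reads per gene, without normalization. The deposited FPKM values divide them by gene length and sequenced total. Columns with the authors' log2 fold changes, and with the authors' p-values, were left unused. The submitters' processing notes name STAR, HTSeq, DESeq2, edgeR and GRCm39, without versions or settings. Lengths worked out from the count and FPKM of a gene matched its GENCODE M21 exon length within 0.1% for 95.5% to 95.9% of genes. The tables hold no coordinates, so those given are of M21 on GRCm38, joined by Ensembl identifier (20666 of 20673 genes).

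Counts were tested in R 4.3.3 with edgeR 4.0.16 (filterByExpr by diet, 13105 genes, TMM factors 0.886 to 1.07, glmQLFit and glmQLFTest, two-sided, no covariates), and p-values were adjusted by Benjamini-Hochberg across the whole table. Calls required an adjusted p under 0.05. Intervals use the moderated degrees of freedom of the fit. Alternatives were DESeq2 1.42.0, other scalings and filters, limma-trend (limma 3.58.1) on log2 FPKM plus 1 or 0.1, offsets from a loess fit on gene length, a replicate block and each liver left out. The scripts were tested on simulated data. Shared transcript sequence was searched with minimap2 2.31 (at least 200 bases at 90% identity), which found for the 10 genes the overlapping neighbours of Apoa4, Apoa5 and Apoc2, and no copy elsewhere. Python 3.11.15 and matplotlib 3.10.9 drew the figures.

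The 10 genes and the gene lists were chosen with earlier results of these data known. Every member is named with all livers. Called genes of the lists are named, with some of those next by p, and for each called member the 5 genes of highest correlation. Others named from the lists were chosen for their role after their values were seen. Some results of the lipoprotein clearance list are not reported here.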

Additional observations from a re-analysis of the deposited data

How the results depend on the processing

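The count of 2 called members (428 genes called in all) became 5 (1118) with DESeq2 and 4 (649) without a filter. With the length trend removed it was 0 (251). In limma-trend it was 0 (374) on log2 FPKM plus 1 and 0 (344) on log2 FPKM plus 0.1. It was 0 (40) at an adjusted p under 0.01 and 6 (2739) at an unadjusted p of 0.05 or less. With a liver left out, 0 to 3 members and 39 to 387 genes were called. Same-numbered livers of the diets did not deviate together (r from -0.076 to 0.088 over the 3 pairs). So few pairs cannot exclude a pairing by number, which the labels do not mention. A replicate block called 1 member (136 genes), Apoc1, with Apoe at an adjusted p of 0.0595. Apoe was also at 0.0545 among genes of at least 50 counts on average. In limma-trend, Apoc1 had adjusted p of 0.0756 and 0.0807 and Apoe of 0.229 and 0.249.

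The log2 fold change of Apoc1 stayed between 0.97 and 1.38 and that of Apoe between 0.91 and 1.11 under all 17 alternatives. Of 169 values of single members under the alternatives, 136 kept direction and side of the threshold, 16 lost a call, 8 gained one and 9 reversed. Apoc2, too sparse to read and absent from the 50-count fit, was -0.0027 with library sizes alone, -0.021 and -0.076 in limma-trend, -0.21 without the length trend, -0.053 with the replicate block, and -0.29 to 0.41 with a liver left out (-0.29 without RD replicate 1, -0.27 without HCD replicate 1, -0.16 without HCD replicate 2). Mttp was 0.012 without the length trend. The share of counts differed by 1.82 points, by 2.37 as a share of FPKM, by 2.69 with the 50 most abundant genes left out of the denominator (members kept), and by 1.61 to 2.12 with a liver left out. The causes of these shifts were not tested.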
